A study of Saccharomyces cerevisiae with 44 samples.

Results

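The RNA that co-purified with both Cbp80 and Yra1 in wild-type budding yeast (Saccharomyces cerevisiae) was compared with the RNA that came through the same purification from a strain without a purification tag. The comparison rests on 6 of the 30 libraries of the series, chosen by strain and purification step: 3 Cbp80/Yra1 pulldowns and 3 no-tag pulldowns, which the labels list as 7 of 44 sequencing samples because the pulldown of Cbp80-PrA replicate 2 was read on 2 sequencers. The tagged strain had the genotype CBP80-PPX-PrA, SNAPf-YRA1, in which protein A (PrA) is fused to Cbp80. The no-tag strain carried SNAPf-YRA1 alone, so both strains expressed SNAP-tagged Yra1 in a BY4741/2 background, and no gene was deleted for the comparison. Cells were grown at 30 °C, lysates were crosslinked with 0.2% formaldehyde, and complexes were captured on IgG through PrA, released by protease cleavage and captured again with an antibody against Yra1. Total RNA of the same 2 strains, 3 libraries each, gave the level of each RNA before purification. The replicates are biological per the study's methods. The p-values of the pulldowns rest on the spread within groups over all 15 pulldown libraries of 5 strains, not only the 6 compared. Those of total RNA rest in the same way on 15 total RNA libraries.

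Cbp80, encoded by STO1, forms the nuclear cap-binding complex (CBC) together with Cbp20. The complex binds the 7-methylguanosine cap that RNA polymerase II transcripts receive while they are being made. Yra1 is the yeast member of the Aly/REF family of export adaptors, which joins the transcript during 3′-end formation and links it to the export receptor Mex67. After export the complex gives way to the cytoplasmic cap-binding protein eIF4E. Small nucleolar RNAs (snoRNAs), which guide the modification of ribosomal RNA, most spliceosomal RNAs and many antisense transcripts are also made by RNA polymerase II and start their lives with the same cap, whereas tRNAs are made by RNA polymerase III and carry none.

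Each value is a count of distinct 3′-end tags on a gene, or that count per 1000000 of the library's scaled total (CPM). Gene counts ran from 257286 to 459999 in the Cbp80/Yra1 pulldowns and from 44389 to 71037 in the no-tag pulldowns, so 1 count was worth 2.12 to 3.91 CPM in the Cbp80/Yra1 libraries and 21.5 to 31.6 CPM in the no-tag libraries. The no-tag libraries therefore set the precision, and the amount of RNA recovered was not measured. Every fold change below compares shares of scaled totals, which differ from the plain shares of gene counts given in percent. The scaling factors (edgeR's TMM method) were 0.69 to 0.77 in the no-tag pulldowns and 1.07 to 1.15 in the Cbp80/Yra1 pulldowns. Genes deleted in the BY4741/2 background, LEU2, LYS2, MET17 and URA3, had 0 counts in all 6 libraries. HIS3, also deleted in that background but in part, had 19, 36 and 23 counts with Cbp80/Yra1 and 13, 10 and 3 counts without a tag, and was called lower at -1.44 ± 0.42 (adjusted p = 0.00259). In total RNA 0 of 4792 genes (0%) differed between the Cbp80-PrA and the no-tag strain by edgeR's quasi-likelihood test, and 0 by DESeq2, while 310 had an unadjusted p under 0.05. Of 2997 genes tested in the pulldowns, 1014 (33.8%) were called higher with Cbp80/Yra1 and 751 (25.1%) lower, where a call needed a Benjamini-Hochberg adjusted p below 0.05 in edgeR together with a change of more than 1 log2 unit. A cut of 102 CPM decided which genes were tested. No no-tag library reached it in 1280 of the 2997 tested genes and 782 of the 1014 called higher. The cut was applied over the pulldown libraries of all strains fitted together. These genes therefore passed it through Cbp80/Yra1 libraries or through libraries of the other strains, and which of these carried each gene was not examined. With the cut set in total RNA instead, 30.6% of genes (1465 of 4792) were called higher and 12.2% (586) lower. The median log2 fold change of all tested genes was 0.18. It was 0.72 with median-ratio scaling and 0.70 with total counts, a shift of 0.54 and 0.52 that moved the share of higher calls to 73.6% and 73.3%, against 57.5% here. No call turned its sign under either scaling.

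Most tested RNAs that are not mRNAs were called higher. Of 131 tested genes annotated as something other than protein-coding, 119 were called higher and 1 lower, against 894 and 749 of 2863 coding genes. No no-tag library reached the cut in 33 of 67 tested snoRNA genes, 38 of 41 tested tRNA genes and 1195 of the coding genes. With the cut set in total RNA, 60 of 66 snoRNA and 30 of 40 tRNA genes were called higher, against 1356 of 4649 coding genes. All 4 snoRNA classes, the tRNA genes, the antisense and other non-coding RNAs, and the spliceosomal RNAs took a larger share of every Cbp80/Yra1 library than of any no-tag library. The share on ribosomal protein mRNAs was below that of every no-tag library. With 3 libraries against 3 an exact permutation test of a share cannot go below p = 0.10, so the shares are given as a description.

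**Figure D1:**
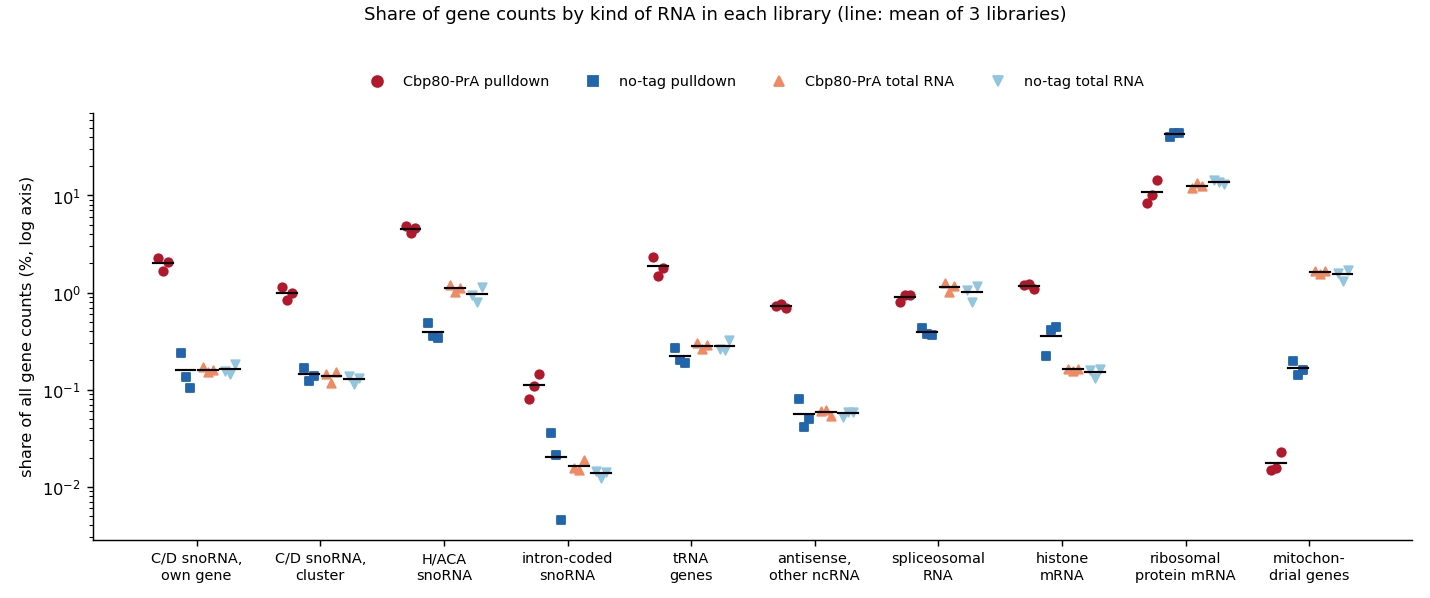
Share of all gene counts (%, log axis) held by 10 kinds of RNA in each Cbp80/Yra1 pulldown, each no-tag pulldown and each total RNA library of the 2 strains, where a point is a library and a line the mean of 3. Box H/ACA snoRNA genes sit at 4.13 to 4.83% in the Cbp80/Yra1 pulldowns and at 0.34 to 0.49% in the no-tag pulldowns, while ribosomal protein mRNAs sit at 8.42 to 14.4% and at 40.5 to 44.3%.

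The snoRNA genes were divided by how they are made. Box C/D snoRNAs guide the methylation of ribosomal RNA and are recognised by a C box near the 5′ end and a D box near the 3′ end, and box H/ACA snoRNAs guide pseudouridylation and end in an ACA box. In yeast most have a promoter of their own, some box C/D snoRNAs are cut from a transcript of several, and a few lie in introns of mRNAs. The sequences of 1 member of each arrangement, read from the R64 genome, are shown because the results are divided along these lines. Capitals mark TGATGA within the first 20 bases, CTGA within the last 20 bases or ACA within the last 6 bases, searched on the RNA's strand only. SNR79 (chrXII:348427-348510, minus strand) has its own gene, SNR78 (chrXIII:297278-297364, plus strand) is the first of a cluster of 7, SNR38 (chrXI:283185-283279, plus strand) lies in an intron of TEF4, and SNR189 (chrIII:178610-178798, minus strand) is an H/ACA snoRNA with its own gene.
SNR79: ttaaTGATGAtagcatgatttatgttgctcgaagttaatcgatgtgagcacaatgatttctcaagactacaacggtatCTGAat
SNR78: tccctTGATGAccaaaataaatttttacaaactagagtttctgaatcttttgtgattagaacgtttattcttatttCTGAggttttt
SNR38: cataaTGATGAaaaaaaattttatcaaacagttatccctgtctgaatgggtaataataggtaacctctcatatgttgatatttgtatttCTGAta
SNR189: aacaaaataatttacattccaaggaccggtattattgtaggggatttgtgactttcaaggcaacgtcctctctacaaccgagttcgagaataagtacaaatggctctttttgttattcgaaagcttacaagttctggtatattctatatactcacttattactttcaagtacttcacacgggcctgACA
TGATGA stood in its window in 30 of 40 box C/D genes with their own gene or in a cluster (75%) and 1 of 27 box H/ACA genes (3.7%), CTGA in 38 of 40 (95%) and 2 of 27 (7.41%), and the terminal ACA in 3 of 40 (7.5%) and 15 of 27 (55.6%).

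Box C/D snoRNAs with their own gene took 1.99% ± 0.306 of gene counts in the Cbp80/Yra1 pulldowns and 0.158% ± 0.0692 in the no-tag pulldowns (SD, n = 3 each), beside 0.16% and 0.162% in total RNA of the 2 strains. All 23 were tested and all 23 were called higher, with a median log2 fold change of 2.93. In 14 of the 23 no no-tag library reached the cut, and with the cut set in total RNA 20 of 20 were called higher. SNR79 had 790, 563 and 873 CPM in the Cbp80/Yra1 libraries and 44.7, 21.5 and 31.6 CPM in the no-tag libraries, a log2 fold change of 4.47 ± 0.49 (SE, edgeR adjusted p = 2.95e-12). SNR4, the most abundant of them, had 3544, 3365 and 4006 CPM with Cbp80/Yra1 and 380, 323 and 158 CPM without a tag (3.62 ± 0.30, adjusted p = 1.12e-16). In neither gene did any library of one group reach the other group. The smallest differences of the class were in SNR17A and SNR17B, the near-identical copies of the U3 RNA of ribosomal RNA processing, at 1.96 ± 0.30 and 1.92 ± 0.43, whose reads cannot be divided with certainty.

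Box C/D snoRNAs of clusters took 0.991% ± 0.142 with Cbp80/Yra1 and 0.144% ± 0.0224 without a tag. Of 17 members 14 were tested and 13 called higher, with a median of 2.17, and in 7 of the 14 no no-tag library reached the cut. Filtering in total RNA gave 14 of 15 called higher. Members of 1 cluster, which are cut from 1 transcript, had unlike values, but a difference between members was not tested. In the cluster of SNR72 to SNR78 on chromosome XIII, SNR78 had 156, 148 and 207 CPM with Cbp80/Yra1 and 0, 0 and 31.6 CPM without a tag. That is 170 counts against 1, a ratio of 20.5 with a 95% counting interval of 3.63 to 815, which covers counting error only. SNR75 had 266, 142 and 242 CPM against 223, 151 and 31.6 CPM in the no-tag libraries and was not called (0.54 ± 0.48, adjusted p = 0.335), its groups overlapping. SNR73 had 126 counts against 3 (ratio 5.07, counting interval 1.7 to 24.9) and was called, but not without no-tag replicate 1.

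Box H/ACA snoRNAs took the largest share of the 4 classes, 4.53% ± 0.358 with Cbp80/Yra1 and 0.396% ± 0.0818 without a tag. Of 27 members 26 were tested, 23 were called higher and 0 lower, with a median of 3.06, beside 33.8% and 25.1% of all genes tested. In 9 of the 26 no no-tag library reached the cut, and with the cut set in total RNA 23 of 27 were called higher. SNR30, which is needed for cleavage of the ribosomal RNA precursor, was the most abundant snoRNA of the pulldown, with 5363, 7025 and 5883 CPM in the Cbp80/Yra1 libraries and 603, 926 and 600 CPM in the no-tag libraries (3.09 ± 0.27, adjusted p = 1.2e-15). SNR189 had 2774, 1757 and 2557 CPM with Cbp80/Yra1 and 223, 86.2 and 31.6 CPM without a tag (4.28 ± 0.35, adjusted p = 8.68e-17), again without overlap.

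3 members of the H/ACA class were not called, and 2 of them were its most abundant RNAs before purification. SNR86 averaged 4079 CPM in Cbp80-PrA total RNA and 3361 CPM in no-tag total RNA, yet had 422, 538 and 535 CPM in the Cbp80/Yra1 pulldowns and 514, 431 and 505 CPM in the no-tag pulldowns, a log2 fold change of 0.05 ± 0.27 (adjusted p = 0.874). SNR84 averaged 3989 and 3460 CPM in the total RNA of the same strains, and had 231, 368 and 355 CPM with Cbp80/Yra1 and 290, 172 and 284 CPM without a tag (0.39 ± 0.32, adjusted p = 0.287). For both genes the groups overlapped, and the level in either pulldown lay below that in total RNA. SNR49 was at 1.37 ± 0.91 (adjusted p = 0.21). SNR31 was called at 1.13 ± 0.29 (adjusted p = 0.000714), a call that ended without no-tag replicate 3.

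The 8 snoRNA genes inside introns took 0.112% ± 0.0323 of counts with Cbp80/Yra1 and 0.0204% ± 0.0155 without a tag, and only 3 of them passed the filter. SNR38 had 270, 275 and 311 CPM in the Cbp80/Yra1 libraries and 89.4, 43.1 and 0 CPM in the no-tag libraries (2.53 ± 0.50, adjusted p = 1.54e-05). SNR18, in an intron of EFB1, was called at 1.58 ± 0.61 (adjusted p = 0.0375), but not without Cbp80-PrA replicate 2 or no-tag replicate 2. SNR44, in an intron of RPS22B, was at 2.09 ± 1.14 and not called (adjusted p = 0.129). All 3 overlap their host genes on the same strand, so tags of the unspliced host mRNA and of the snoRNA cannot be told apart.

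**Figure D2:**
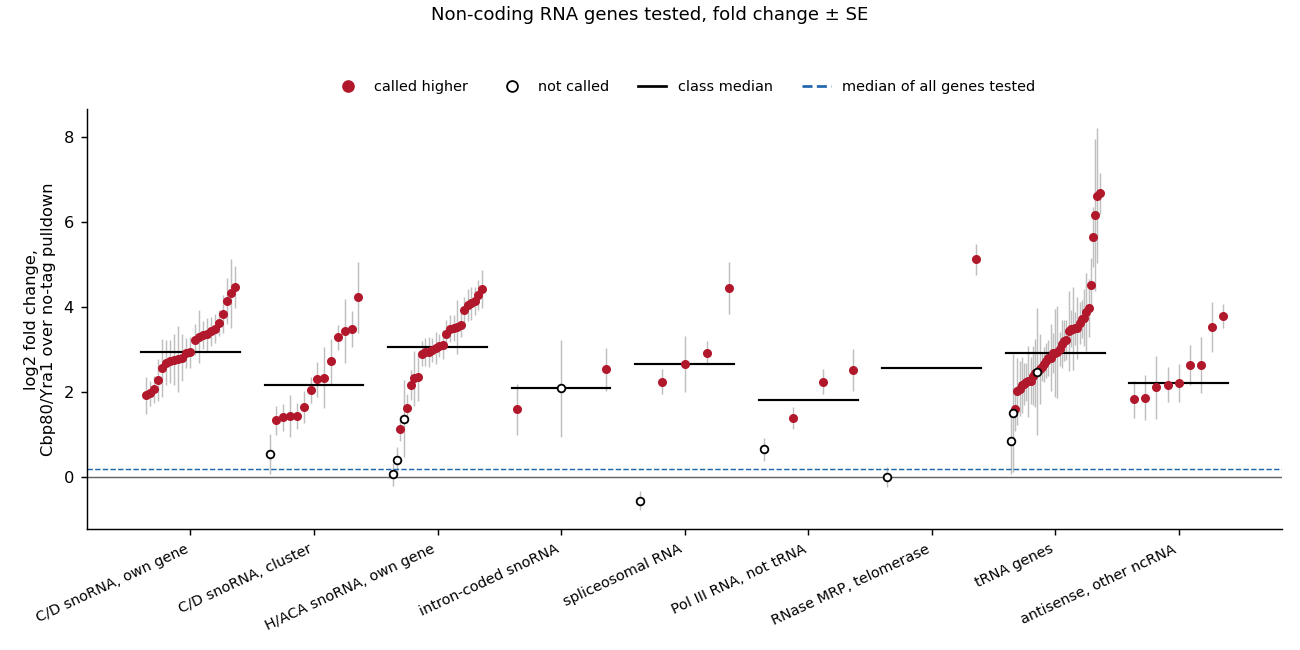
Log2 fold change of each tested non-coding RNA gene, Cbp80/Yra1 over no-tag pulldown (y axis), by class (x axis), where filled points were called higher, open points were not called, grey bars are SE, black lines are class medians and the dashed line is the median of all genes tested, 0.18. The own-gene box C/D snoRNAs lie between 1.92 and 4.47, and LSR1 is the open point at -0.56 among the spliceosomal RNAs.

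Of the 5 tested spliceosomal RNAs 4 were called higher, the U6 RNA among them. The U1 RNA SNR19 had 2989, 3820 and 4551 CPM with Cbp80/Yra1 and 447, 711 and 316 CPM without a tag (2.91 ± 0.28, adjusted p = 4.66e-14). SNR14, the U4 RNA, was called higher at 2.65 ± 0.66 (adjusted p = 0.00109), and SNR7-L, the long form of the U5 RNA, had 518 counts against 3 (ratio 20.8, counting interval 7.09 to 101), though it overlaps its short form SNR7-S in the annotation. LSR1, the U2 RNA, had 2860, 3797 and 3095 CPM with Cbp80/Yra1 and 5206, 4696 and 4485 CPM without a tag. All its Cbp80/Yra1 libraries lay below all its no-tag libraries, but its log2 fold change of -0.56 ± 0.23 (adjusted p = 0.0277) did not pass the fold threshold. In total RNA LSR1 averaged 10521 CPM in the Cbp80-PrA strain and 9491 CPM in the no-tag strain.

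The RNAs of 2 ribonucleoprotein enzymes were also on different sides of the threshold. NME1, the RNA of RNase MRP, which cleaves the ribosomal RNA precursor, had 3106, 2648 and 2757 CPM in the Cbp80/Yra1 pulldowns and 134, 64.6 and 31.6 CPM in the no-tag pulldowns, a log2 fold change of 5.12 ± 0.36 (adjusted p = 1.59e-19). It averaged 113 CPM in total RNA of either strain. TLC1, the template RNA of telomerase, had 1166, 1270 and 1301 CPM with Cbp80/Yra1 and 1519, 1012 and 1232 CPM without a tag, with overlapping groups and a log2 fold change of -0.01 ± 0.24 (adjusted p = 0.974). TLC1 averaged 1340 CPM in Cbp80-PrA total RNA and 1224 CPM in no-tag total RNA. Total RNA and pulldown libraries were scaled apart, so small differences between their CPM values cannot be read. The oligo(dT) priming of the libraries reads polyadenylated 3′ ends and A-rich stretches, and tags per gene do not tell mature RNAs from precursors.

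RNA polymerase III transcripts were higher too. tRNA genes took 2.32%, 1.47% and 1.78% of gene counts in the Cbp80/Yra1 libraries and 0.272%, 0.201% and 0.187% in the no-tag libraries, beside 0.284% and 0.28% in total RNA. Of 299 annotated tRNA genes 255 had a count and 41 were tested, for 14 amino acids. Of these 38 were called higher and 0 lower, with a median of 2.92, which was 1.45 in DESeq2. All but 3 of the 41 had every no-tag library below the cut. Over all tRNA genes with a count, 116 had every Cbp80/Yra1 library above every no-tag library, against 35.7% of all 6072 genes with a count, and 4 had the opposite order, against 17.8%. With the filter set in total RNA 30 of 40 were called higher and 2 lower. An identical gene lies elsewhere for 24 of the tested genes, which leaves their reads uncertain. Reads that aligned to more than 1 place were listed apart from the gene counts. All 17 tested genes without an identical copy were called higher.

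YNCJ0008W, an arginine tRNA gene on chromosome X without an identical copy, had 821, 1055 and 683 counts with Cbp80/Yra1 and 1, 0 and 2 counts without a tag, or 3212, 2233 and 2356 CPM against 22.3, 0 and 63.2 CPM in the no-tag libraries. The ratio of summed counts was 103 with a 95% counting interval of 35.2 to 499 (fitted log2 fold change 6.67 ± 0.49, adjusted p = 2.95e-17), and the groups did not overlap. In total RNA the gene averaged 656 CPM in the Cbp80-PrA strain and 591 CPM in the no-tag strain. The tryptophan gene YNCP0001C and the serine gene YNCH0004C, both with identical copies, had 0 counts in the no-tag libraries and were at least 3.5-fold and at least 2.57-fold higher. The lysine gene YNCD0026W, also with identical copies, had a ratio of 51.8 (counting interval 9.24 to 2049). The sequence of YNCJ0008W (chrX:233939-234011, plus strand, R64) is shown beside SNR52 (chrV:431129-431220, minus strand), a box C/D snoRNA that RNA polymerase III transcribes, because both lack a polymerase II cap. Capitals mark the B box GTTCNANNC, an internal promoter element searched on the RNA's strand of the whole gene and found in 293 of 299 tRNA genes (98%), and in SNR52 the C and D boxes as above.
YNCJ0008W: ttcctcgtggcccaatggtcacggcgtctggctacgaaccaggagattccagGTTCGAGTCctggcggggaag
SNR52: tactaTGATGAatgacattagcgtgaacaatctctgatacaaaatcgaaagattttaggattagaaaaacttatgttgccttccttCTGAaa

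SNR52 had 473, 303 and 359 CPM with Cbp80/Yra1 and 22.3, 129 and 31.6 CPM without a tag (2.51 ± 0.49, adjusted p = 1.93e-05). SNR6, the U6 spliceosomal RNA, had 1279, 1090 and 1101 CPM with Cbp80/Yra1 and 246, 259 and 221 CPM without a tag (2.24 ± 0.30, adjusted p = 2.54e-09). SCR1, the RNA of the signal recognition particle, was called higher by less, at 1.38 ± 0.25 (adjusted p = 3.57e-06). RPR1, the RNA of RNase P, had 778, 512 and 835 CPM with Cbp80/Yra1 and 469, 388 and 505 CPM without a tag, a log2 fold change of 0.65 ± 0.27 that did not pass the fold threshold (adjusted p = 0.0353). Whether the tags of these genes come from the mature RNA or from a polyadenylated form was not tested.

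Regulatory and antisense transcripts formed a small set in which every tested member was called higher. Of 21 annotated antisense and other non-coding RNAs 15 had a count, 13 of them with every Cbp80/Yra1 library above every no-tag library, and 9 of 9 tested were called higher, with a median of 2.21. In 7 of the 9 no no-tag library reached the cut. Their summed share was 0.725% ± 0.0299 with Cbp80/Yra1 and 0.0565% ± 0.0201 without a tag, beside 0.0586% and 0.0568% in total RNA.

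SRG1 carried most of that share. This RNA is transcribed across the promoter of SER3, a gene of serine synthesis, and its transcription represses SER3 in rich medium. SRG1 (YNCE0017W, chromosome V, 322212 to 322762, plus strand) had 4941, 5165 and 4979 CPM in the Cbp80/Yra1 libraries and 514, 259 and 316 CPM in the no-tag libraries, a log2 fold change of 3.78 ± 0.28 (adjusted p = 1.18e-18), and averaged 191 CPM in Cbp80-PrA total RNA and 181 CPM in no-tag total RNA. It was among the 10 most abundant genes of the Cbp80/Yra1 pulldown and took 0.5% ± 0.0269 of its gene counts. SER3 itself (chromosome V, 322686 to 324095, plus strand) had 493, 330 and 348 CPM with Cbp80/Yra1 and 22.3, 21.5 and 31.6 CPM without a tag, 383 counts against 3 (ratio 15.4, counting interval 5.23 to 75). The annotated 3′ end of SRG1 lies inside SER3 on the same strand, so tags of the 2 genes cannot be fully separated.

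Antisense RNAs were read beside the genes on the opposite strand. TBRT, antisense to the amino acid permease gene TAT1, had 333, 241 and 304 CPM with Cbp80/Yra1 and 44.7, 0 and 31.6 CPM without a tag (287 counts against 3, ratio 11.5, counting interval 3.91 to 56.3), and TAT1 was called higher by less, at 1.80 ± 0.29 (adjusted p = 1.97e-07). YNCM0001W, antisense to the phosphate transporter gene PHO84, was called at 1.86 ± 0.53 (adjusted p = 0.00194), while PHO84 had 430, 392 and 328 CPM with Cbp80/Yra1 and 223, 172 and 190 CPM without a tag and was not called (0.97 ± 0.33, adjusted p = 0.00973). RME2, an antisense RNA that overlaps genes on both strands, had 110 counts against 3 (ratio 4.42, counting interval 1.47 to 21.8) and was called, but not without no-tag replicate 2. IRT1, the RNA transcribed upstream of IME1, the master regulator of meiosis, was called at 1.82 ± 0.44 (adjusted p = 0.000268). Pairs on opposite strands are separated only as far as the counting used strand, which is not given in the sources used here.

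**Figure D3:**
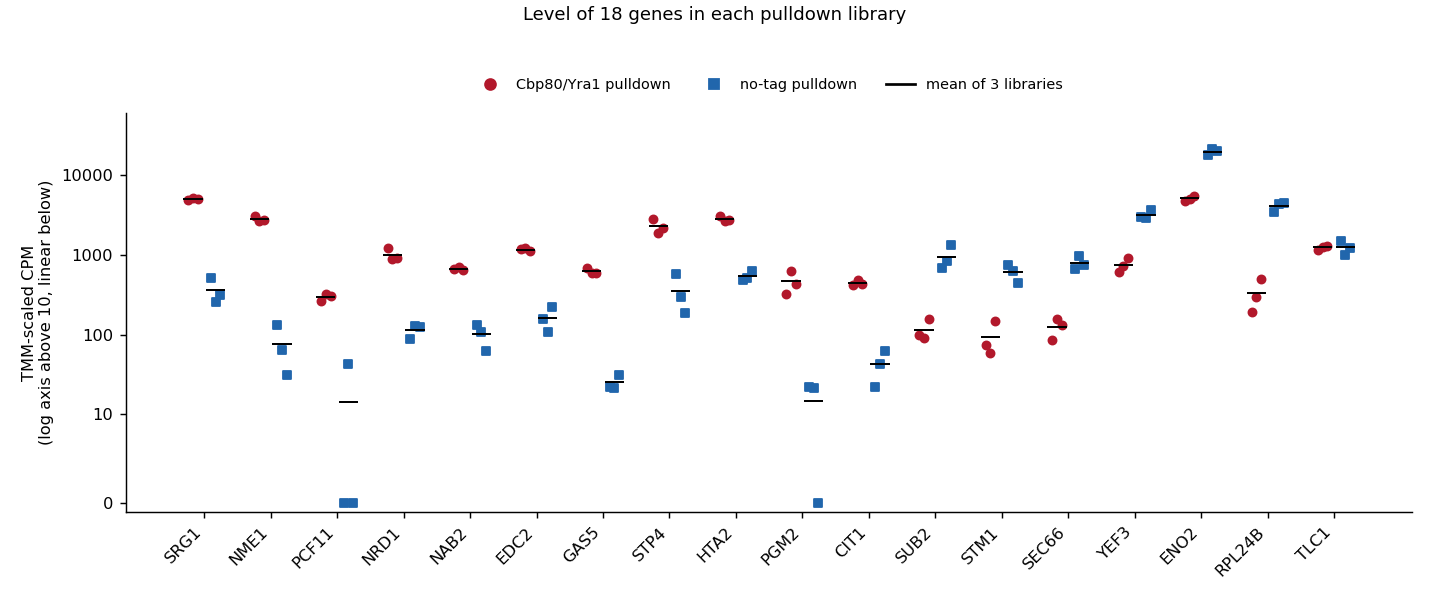
Level of 18 genes in each Cbp80/Yra1 pulldown (circles) and each no-tag pulldown (squares), in CPM on an axis that is logarithmic above 10 and linear below, with lines at the mean of 3 libraries. SRG1 lies at 4941 to 5165 CPM against 259 to 514 CPM in the no-tag libraries, SEC66 at 86.1 to 157 CPM against 670 to 969 CPM, and the groups of TLC1 overlap.

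Of 20 genes of cleavage and polyadenylation, whose products form the 3′ end of mRNAs, 12 were tested, 9 were called higher and 0 lower, with a median of 1.91. In 11 of the 12 no no-tag library reached the cut, and with the filter set in total RNA 9 of 19 were called higher and 0 lower. The shares of all genes under that filter were 30.6% and 12.2%. PCF11, a subunit of cleavage factor IA that also releases RNA polymerase II, had 262, 324 and 304 CPM with Cbp80/Yra1 and 0, 43.1 and 0 CPM without a tag (308 counts against 2, ratio 18.6, counting interval 5.1 to 154). PTI1, of the cleavage and polyadenylation factor, was called at 2.55 ± 0.44 (adjusted p = 1.18e-06), and GLC7, its phosphatase subunit, at 2.47 ± 0.59 (adjusted p = 0.000242). HRP1, of cleavage factor IB, had 794, 684 and 645 CPM with Cbp80/Yra1 and 156, 237 and 158 CPM without a tag (1.92 ± 0.32, adjusted p = 5.59e-07). No library of these genes crossed between the groups. RNA14, CFT1 and YSH1, which encode subunits of the same complexes, were at -0.46, -0.27 and -0.07 and were not called.

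Genes of nuclear RNA termination and surveillance had members on both sides. NRD1, which ends the transcription of snoRNAs and unstable transcripts and limits its own mRNA in that way, had 1224, 883 and 925 CPM with Cbp80/Yra1 and 89.4, 129 and 126 CPM without a tag (3.13 ± 0.35, adjusted p = 5.61e-12). It averaged 58.4 CPM in Cbp80-PrA total RNA and 78.9 CPM in no-tag total RNA. AIR2, of the TRAMP complex that marks nuclear RNA for decay, was called at 2.40 ± 0.52 (adjusted p = 5.85e-05). NAB3, the partner of Nrd1, was called at 1.2 ± 0.35 (adjusted p = 0.00279), but not without Cbp80-PrA replicate 2. Subunits of the exosome, the nuclease that TRAMP feeds, were on the other side: RRP42 had 43, 57.1 and 75.9 CPM with Cbp80/Yra1 and 179, 259 and 284 CPM without a tag (-1.99 ± 0.40, adjusted p = 2.02e-05), and CSL4 was called lower at -1.77 ± 0.33 (adjusted p = 5.3e-06). Of the 20 tested genes of this list 6 were called higher and 5 lower, close to the 33.8% and 25.1% of all genes tested.

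The mRNAs of the captured proteins and their partners were read as well. STO1, which encodes Cbp80, had 168, 108 and 197 CPM with Cbp80/Yra1 and 0, 21.5 and 63.2 CPM without a tag (151 counts against 3, ratio 6.07, counting interval 2.04 to 29.8). YRA1, whose intron-containing mRNA is kept low by its own protein, had 46.9, 55 and 55.2 CPM with Cbp80/Yra1 and 44.7, 194 and 347 CPM without a tag. YRA1 was called lower at -1.76 ± 0.53 (adjusted p = 0.00503), but the groups overlapped and the call ended without no-tag replicate 3. HPR1, a subunit of the THO complex, was called higher (149 counts against 3, ratio 5.99, counting interval 2.01 to 29.4). Of 26 genes of the CBC, THO, the TREX export complex and mRNP assembly 18 were tested, 6 called higher and 5 lower. These shares were close to the 33.8% and 25.1% of all genes tested. DBP5, the helicase that remodels mRNPs at the nuclear pore, was called lower at -1.94 ± 0.31 (adjusted p = 2.17e-07).

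Messages of RNA-binding proteins that control mRNA stability and translation were divided between both ends of the range. Of 43 such genes 26 were tested, 12 called higher and 6 lower, with a median of 0.26, beside 33.8% and 25.1% of all genes. In 14 of the 26 no no-tag library reached the cut, and with the filter set in total RNA 17 of 41 were called higher and 5 lower. SSD1, a translational repressor of cell wall mRNAs, had 69 counts with Cbp80/Yra1 and 0 without a tag, at least 2.78-fold higher when 3 counts are taken as the floor of the no-tag group. NAM7, which encodes the nonsense-mediated decay helicase Upf1, had 199 counts against 1 (ratio 24, counting interval 4.26 to 953). MPT5, a Pumilio family repressor, had 322 counts against 3 (ratio 13, counting interval 4.39 to 63.1). EDC2, an activator of decapping, had 1189, 1213 and 1111 CPM with Cbp80/Yra1 and 156, 108 and 221 CPM without a tag (2.90 ± 0.31, adjusted p = 2.24e-12). At the other end STM1, a ribosome-bound preservation factor, had 74.3, 59.3 and 148 CPM with Cbp80/Yra1 and 760, 625 and 442 CPM without a tag (-2.75 ± 0.31, adjusted p = 1.15e-11), and SCP160, a polysome-bound KH protein, was at -2.5 ± 0.30 (adjusted p = 8.33e-11). SBP1, a repressor of translation, was called lower at -2.07 ± 0.55 (adjusted p = 0.00292), with overlapping groups and not without no-tag replicate 2.

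Sequence-specific transcription factors had 24 of 51 tested genes called higher and 4 lower, with a median of 1.34, beside 33.8% and 25.1% of all genes. Only 51 of 138 genes of this list passed the filter, 32 of them with every no-tag library below the cut. Over all 138, 67 had every Cbp80/Yra1 library above every no-tag library and 6 below, beside 35.7% and 17.8% of all genes with a count. With the filter set in total RNA 52 of 115 were called higher and 0 lower. Their summed share was 1.61%, 1.5% and 1.41% with Cbp80/Yra1 and 0.524%, 0.389% and 0.338% without a tag. HAP4, the regulatory subunit of the activator of respiration genes, had 149 counts against 1 (ratio 18, counting interval 3.18 to 715), and RGM1, a zinc finger protein, had 115 counts against 0, at least 4.63-fold higher. GCR1, the activator of glycolytic genes, had 250, 176 and 207 CPM with Cbp80/Yra1 and 22.3, 21.5 and 31.6 CPM without a tag (ratio 8.33, counting interval 2.81 to 40.7). STP4, another zinc finger protein, had 2801, 1916 and 2181 CPM with Cbp80/Yra1 and 581, 302 and 190 CPM without a tag (2.64 ± 0.29, adjusted p = 4.31e-12). GCN4, whose mRNA is held under translational control by upstream reading frames, was called lower, at 321, 248 and 390 CPM with Cbp80/Yra1 and 938, 862 and 569 CPM without a tag (-1.34 ± 0.26, adjusted p = 1.13e-05), a call that ended with median-ratio scaling, with total counts and in DESeq2.

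Genes of storage carbohydrate and of the tricarboxylic acid (TCA) cycle were mostly on the higher side. Of 21 genes of trehalose and glycogen metabolism 17 were tested, 14 called higher and 0 lower, with a median of 1.92. In 15 of the 17 no no-tag library reached the cut, and with the filter set in total RNA 14 of 20 were called higher and 0 lower. The shares of all genes under that filter were 30.6% and 12.2%. PGM2, the major phosphoglucomutase, had 325, 639 and 438 CPM with Cbp80/Yra1 and 22.3, 21.5 and 0 CPM without a tag (512 counts against 2, ratio 30.9, counting interval 8.51 to 256). GDB1, the glycogen debranching enzyme, had 88 counts against 0 and was at least 3.54-fold higher. TPS1, which makes trehalose phosphate, was well measured on both sides, with 1146, 1268 and 1028 CPM against 246, 495 and 411 CPM in the no-tag libraries (1.58 ± 0.28, adjusted p = 1.5e-06).

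Of 26 TCA cycle genes 21 were tested, 12 called higher and 4 lower, with a median of 1.70, beside 33.8% and 25.1% of all genes. In 8 of the 21 no no-tag library reached the cut, and with the filter set in total RNA 13 of 23 were called higher and 2 lower. CIT1, the mitochondrial citrate synthase, had 415, 489 and 431 CPM with Cbp80/Yra1 and 22.3, 43.1 and 63.2 CPM without a tag (3.42 ± 0.47, adjusted p = 3.96e-09). The succinate dehydrogenase gene SDH4 had 365 counts against 3 (ratio 14.7, counting interval 4.98 to 71.5), and SDH2 was called at 3.43 ± 0.50 (adjusted p = 1.6e-08). LSC2, a subunit of succinyl-CoA ligase, went the other way, with 19.6, 10.6 and 31.1 CPM with Cbp80/Yra1 and 156, 86.2 and 190 CPM without a tag (-2.82 ± 0.60, adjusted p = 4.64e-05), while its partner LSC1 was called higher at 1.67 ± 0.45 (adjusted p = 0.0012). PDB1, of pyruvate dehydrogenase, was called lower at -1.65 ± 0.36 (adjusted p = 6.67e-05). The 2 subunits of a single enzyme were thus on opposite sides, and the groups of neither overlapped.

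Glycolysis had members on both sides and a summed share that did not separate the groups, at 5.91 to 6.21% with Cbp80/Yra1 and 5.7 to 6.73% without a tag. Of 27 tested genes 14 were called higher and 4 lower, beside 33.8% and 25.1% of all genes tested. GPD2, which diverts carbon to glycerol, had 293 counts against 2 (ratio 17.7, counting interval 4.85 to 147). PGK1, phosphoglycerate kinase, had 2809, 2595 and 2443 CPM with Cbp80/Yra1 and 447, 366 and 569 CPM without a tag (2.52 ± 0.27, adjusted p = 2.17e-12). The next enzyme of the pathway, GPM1, had 4198, 4017 and 4130 CPM with Cbp80/Yra1 and 7798, 10168 and 8497 CPM without a tag (-1.10 ± 0.21, adjusted p = 8.46e-06), and TDH3, the most abundant gene of either pulldown, was at -1.12 ± 0.18 (adjusted p = 3.68e-07), though its copy TDH2 leaves its reads uncertain. The calls of GPM1 and TDH3 ended with median-ratio scaling, with total counts, in DESeq2 and without no-tag replicate 2.

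**Figure D4:**
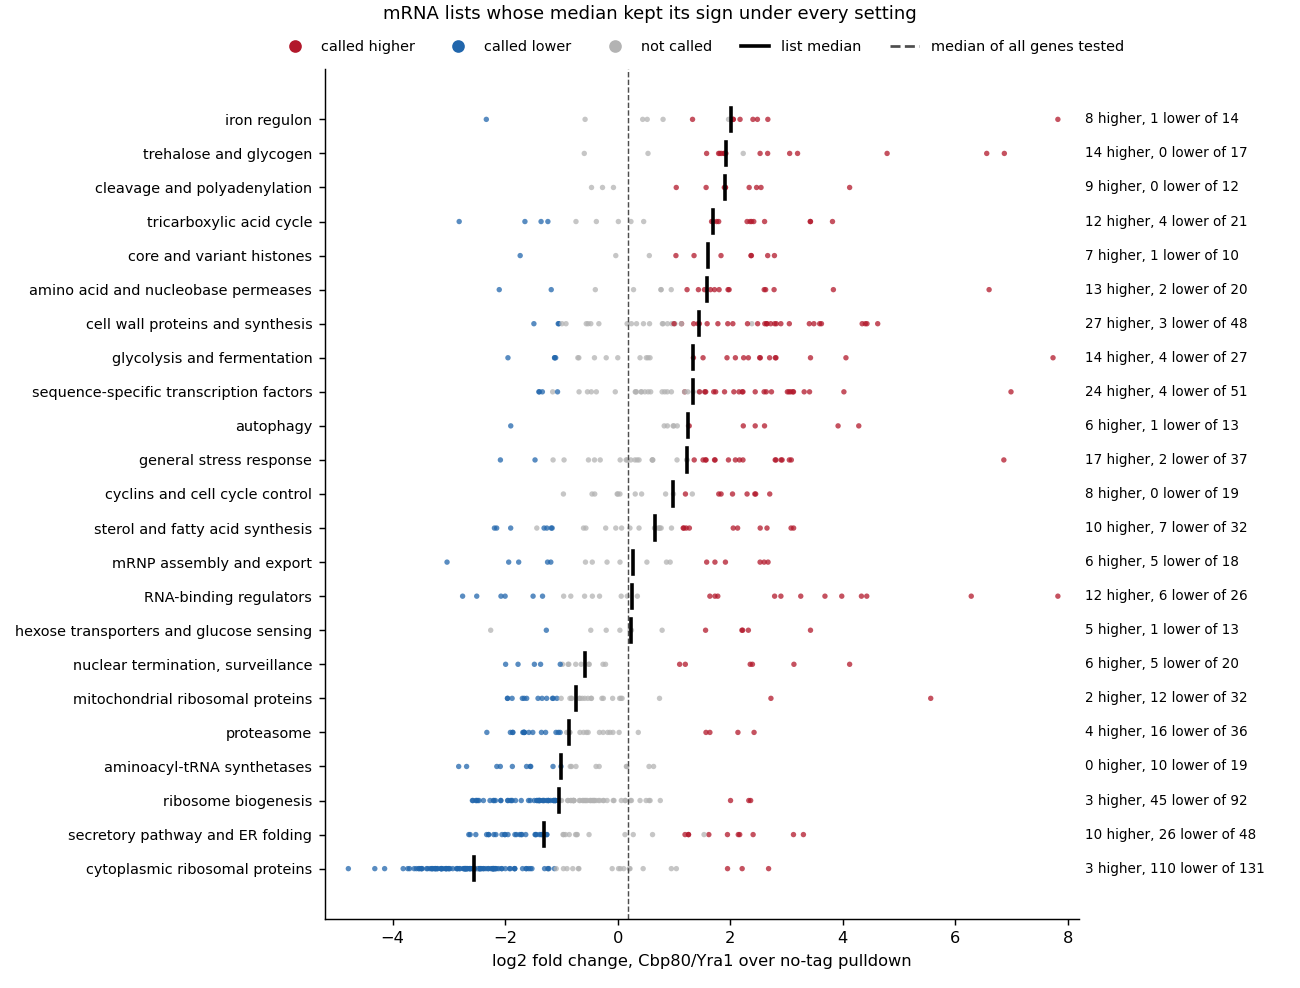
Log2 fold change of each tested gene (points) in 23 lists of mRNAs, Cbp80/Yra1 over no-tag pulldown, with the list median (bar) and the median of all genes tested, 0.18 (dashed line). Red points were called higher, blue points lower and grey points not at all, the counts stand at the right, and the medians run between 2.01 for the iron regulon and -2.54 for cytoplasmic ribosomal proteins.

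Of 30 genes of the iron regulon 14 were tested, 8 called higher and 1 lower, with a median of 2.01. In 10 of the 14 no no-tag library reached the cut, and with the filter set in total RNA 10 of 21 were called higher, with a median of 1.71, beside 30.6% of all genes. ISU1, the scaffold of iron-sulfur cluster assembly, had 516, 392 and 504 CPM with Cbp80/Yra1 and 89.4, 108 and 0 CPM without a tag (2.67 ± 0.42, adjusted p = 1.62e-07). The multicopper oxidase gene FET3, of high-affinity iron uptake, was the member called lower, with 54.8, 50.8 and 86.3 CPM against 268, 302 and 411 CPM in the no-tag libraries (-2.33 ± 0.36, adjusted p = 8.09e-08). Its partner permease FTR1 was called higher at 1.33 ± 0.36 (adjusted p = 0.0011).

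Of 33 amino acid and nucleobase permeases 20 were tested, 13 called higher and 2 lower, with a median of 1.60. Over all genes tested 33.8% were called higher and 25.1% lower. In 9 of the 20 no no-tag library reached the cut, and with the filter set in total RNA 13 of 22 were called higher and 1 lower. MEP1, an ammonium permease, had 244 counts against 2 (ratio 14.7, counting interval 4.03 to 122). SAM3, the S-adenosylmethionine permease, was called lower at -2.10 ± 0.51 (adjusted p = 0.000298). Of 13 tested hexose transporter and glucose sensing genes 5 were called higher and 1 lower, and of 19 tested ion, phosphate and proton transporter genes 7 were called higher and 5 lower. The shares of the ion, phosphate and proton list were close to those of all genes tested. Among 19 tested cyclin and cell cycle genes 8 were called higher and 0 lower, beside 33.8% higher among all genes, and in 12 of the 19 no no-tag library reached the cut. Filtering in total RNA gave 19 of 41 called higher, beside 30.6%. PCL1, a G1 cyclin of the Pho85 kinase, had 865, 815 and 728 CPM with Cbp80/Yra1 and 112, 215 and 94.8 CPM without a tag (2.45 ± 0.35, adjusted p = 1.6e-08), and CLN3, the G1 cyclin that senses growth, was called at 2.44 ± 0.52 (adjusted p = 5.31e-05). Of 39 autophagy genes 13 were tested, 6 called higher and 1 lower, and in 11 of the 13 no no-tag library reached the cut. With the filter set in total RNA 10 of 32 were called higher, close to the 30.6% of all genes. ATG41, of autophagosome formation, had 630, 745 and 569 CPM with Cbp80/Yra1 and 67, 21.5 and 0 CPM without a tag (4.29 ± 0.51, adjusted p = 7.89e-11). ATG21, called lower at -1.90 ± 0.68 (adjusted p = 0.0122), had overlapping groups, and its call ended without no-tag replicate 1 and with 2 other scalings.

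Of 71 cell wall genes 48 were tested, 27 called higher and 3 lower, with a median of 1.44, beside 33.8% and 25.1% of all genes. In 21 of the 48 no no-tag library reached the cut, and with the filter set in total RNA 35 of 57 were called higher and 2 lower. The cell wall genes took 3.21%, 2.88% and 2.97% of counts with Cbp80/Yra1 and 1.35%, 1.53% and 1.36% without a tag. GAS5, a glucan-remodelling enzyme, had 692, 588 and 593 CPM with Cbp80/Yra1 and 22.3, 21.5 and 31.6 CPM without a tag, 627 counts against 3 (ratio 25.2, counting interval 8.59 to 123). PIR1, a cross-linked wall protein, had 538 counts against 3 (ratio 21.6, counting interval 7.37 to 105). CCW12, the most abundant mannoprotein gene, was called lower by little, with 5735, 4269 and 6131 CPM against 9429, 13378 and 10424 CPM in the no-tag libraries (-1.04 ± 0.21, adjusted p = 1.88e-05), a call that ended under the 3 other scalings, without Cbp80-PrA replicate 2 and without no-tag replicate 2.

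Core histone genes, whose mRNAs are made in S phase, had 7 of 10 tested members called higher, beside 33.8% of all genes tested. HTB1, histone H2B, had 790, 815 and 883 CPM with Cbp80/Yra1 and 156, 129 and 94.8 CPM without a tag (2.67 ± 0.34, adjusted p = 3.16e-10). HTA2 was called at 2.38 ± 0.26 (adjusted p = 6.13e-12), though its near-identical copy HTA1 leaves its reads uncertain. CSE4, the histone of the centromere, was called lower, with 27.4, 72 and 41.4 CPM with Cbp80/Yra1 and 223, 172 and 94.8 CPM without a tag (-1.73 ± 0.48, adjusted p = 0.00133). The histone share was 1.08 to 1.22% with Cbp80/Yra1, 0.22 to 0.442% without a tag and 0.161% and 0.151% in total RNA of the 2 strains.

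Among the lists on the lower side was that of messages of proteins that serve the endoplasmic reticulum (ER). Of 72 genes of the secretory pathway and ER folding 48 were tested, 26 called lower and 10 higher, with a median of -1.30. Over all genes tested 25.1% were called lower and 33.8% higher. With the filter set in total RNA 22 of 65 were called lower and 11 higher, beside 12.2% and 30.6% of all genes. SEC66, a subunit of the Sec63 translocation complex, had 86.1, 157 and 131 CPM with Cbp80/Yra1 and 670, 969 and 758 CPM without a tag (-2.64 ± 0.29, adjusted p = 2.37e-12). SPC3, of the signal peptidase, was at -2.62 ± 0.30 (adjusted p = 1.99e-11) and SBH1, of the Sec61 channel, at -2.52 ± 0.41 (adjusted p = 6.11e-05). The members called higher included SEC31, an outer coat subunit of vesicles leaving the ER (256 counts against 3, ratio 10.3, counting interval 3.48 to 50.3), and SWP1, of the oligosaccharyltransferase (136 counts against 3, ratio 5.47, counting interval 1.83 to 26.9). WBP1, another subunit of the oligosaccharyltransferase, was called lower at -1.80 ± 0.45 (adjusted p = 0.000417). The summed share of the list was 0.953 to 0.957% with Cbp80/Yra1 and 1.25 to 1.36% without a tag. Ribosome biogenesis genes also stood lower, with 45 of 92 tested called lower and 3 higher. Aminoacyl-tRNA synthetase genes had 10 of 19 called lower and 0 higher. With the filter set in total RNA 28 of 111 and 8 of 20 were called lower, beside 12.2% of all genes.

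Mitochondrial ribosomal protein genes had 12 of 32 tested members called lower and 2 higher, with a median of -0.75, beside 25.1% lower among all genes. Filtering in total RNA gave 9 of 48 called lower, beside 12.2%. Their summed share was 0.588 to 0.705% with Cbp80/Yra1 and 0.565 to 0.611% without a tag, with overlapping groups. MRPS18 had 102, 69.8 and 62.1 CPM with Cbp80/Yra1 and 447, 215 and 221 CPM without a tag (-1.96 ± 0.42, adjusted p = 0.000114). MRPL3 was called higher at 2.73 ± 0.51 (adjusted p = 5.19e-06). Cytoplasmic ribosomal protein genes were mostly called lower with and without an intron, beside 25.1% of all genes tested. Of 85 tested genes with an intron 69 were called lower and 2 higher, with a median of -2.43. Of 46 without one 41 were called lower and 1 higher, with a median of -2.71. With the filter set in total RNA 66 of 87 and 38 of 49 were called lower, beside 12.2% of all genes. RPL24B had 196, 296 and 504 CPM with Cbp80/Yra1 and 3463, 4309 and 4485 CPM without a tag (-3.62 ± 0.29, adjusted p = 3.13e-15). Its copy RPL24A leaves its reads uncertain, and 95 of the 131 tested genes have such a copy or an overlap. Cbp80-PrA replicate 3 had the largest ribosomal protein share of its group, 14.4% beside 8.42% and 10%, and the no-tag libraries had 40.5%, 43.9% and 44.3%. In total RNA the share was 12.7% ± 0.815 in the Cbp80-PrA strain and 13.7% ± 0.563 in the no-tag strain. The 22 mitochondrially encoded genes, of which 2 were tested and both called lower, took 0.0176% ± 0.00433 with Cbp80/Yra1 and 0.166% ± 0.0287 without a tag.

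The pulldown shares of all called genes were also set against total RNA. Of the 1014 genes called higher, 862 (85.0%) had every Cbp80/Yra1 share above every total RNA share of the Cbp80-PrA strain, and 83 had the opposite order. The first order was found in 442 genes that were not called (35.9%) and in 47.5% of all genes tested, and the calls used the same Cbp80/Yra1 values. Of the 751 genes called lower, 452 (60.2%) had every Cbp80/Yra1 share below total RNA, 120 had every one above it, and 305 had every no-tag pulldown share above every no-tag total RNA share. After the total RNA ratio of the 2 strains was taken off, 936 of the higher and 578 of the lower calls remained.

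Level, length and introns of the called coding genes were described next. The filter bears on level, since 1195 of the 2863 tested coding genes had every no-tag library below the cut. The median level in total RNA was 62.0 CPM for genes called higher, 148 CPM for genes not called and 248 CPM for genes called lower, and the median coding length was 1332, 1299 and 786 nt. With the filter set in total RNA the same medians were 69.0, 85.9 and 214 CPM and 1455, 1368 and 766.5 nt. Without genes that have a near-identical copy or an overlap, the median lengths were 1347, 1308 and 867 nt. An intron was present in 2.13% of the genes called higher, 5.49% of those not called and 14.3% of those called lower, and in 1.91%, 4.41% and 5.95% once ribosomal protein genes were left out. The longest run of A in the coding sequence had medians of 6, 6 and 5 nt. These are descriptions across genes, which are not independent replicates.

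When the 2863 tested coding genes were divided into 4 equal groups by total RNA level, low to high, 57.4%, 33.4%, 22.7% and 11.5% were called higher and 10.6%, 21.5%, 28.5% and 44.0% lower. In the lowest group 506 of 716 genes had every no-tag library below the cut, against 122 of 716 in the highest, and the part of the filter in this order was not tested. By coding length, short to long, 21.2%, 32.1%, 36.3% and 35.3% were called higher and 42.9%, 28.9%, 19.9% and 13% lower. From the shortest to the longest group 169, 275, 344 and 407 genes had every no-tag library below the cut. The median log2 fold change was -0.69 in the group of shortest genes and 0.52 in the longest.

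**Figure D5:**
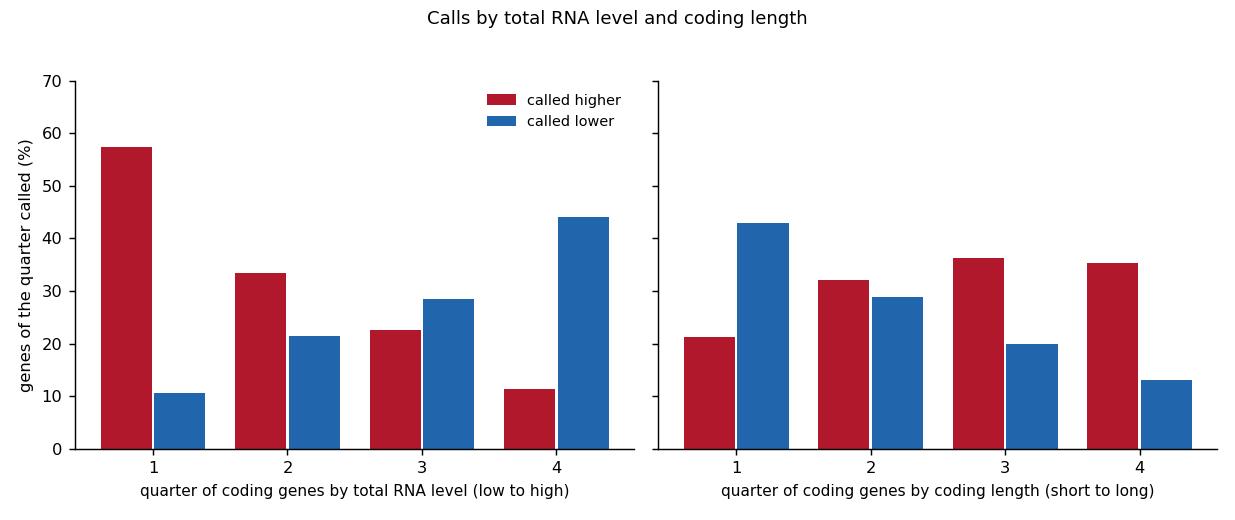
Share of tested coding genes called higher or lower with Cbp80/Yra1 against no tag (%, y axis), by level in total RNA (left) and by coding length (right), in 4 groups each. The share called higher is 57.4% in the lowest group of total RNA level and 11.5% in the highest, and the share called lower is 42.9% in the shortest group and 13% in the longest.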

How the data were processed

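RNA from Yra1 pulldowns and total lysate was read by 3′ tag sequencing (QuantSeq). Per the labels and methods, the authors extracted unique molecular identifiers and removed duplicates with UMI-tools 1.0.1, removed ribosomal RNA reads, aligned with STAR 2.7.10a to R64 and deposited counts per gene from HTSeq 2.0.2 (intersection-nonempty), with the runs of a library combined. Tags assigned to no gene, left out of library sizes and tests, were 48.0 to 53.3% in the Cbp80/Yra1 pulldowns and 47.9 to 51.6% in the no-tag pulldowns. The R64 annotation used here for lengths leaves out untranslated regions. The gene models and strand setting of the counting are not given in the sources used here. The authors' size-factor-normalized values were not used.

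The 15 pulldown libraries of all 5 strains were fitted with edgeR 4.0.16 (R 4.3.3; TMM, filterByExpr, robust quasi-likelihood F test, Benjamini-Hochberg adjustment), 1 mean per group, and the 15 total RNA libraries apart. The code recovered known changes in simulated data where few genes changed, evenly in both directions. Such data could not test the scaling between groups that differ as widely as here. The SE of a log2 fold change is its absolute value divided by the square root of the F statistic, and is approximate. Copies came from BLAST 2.17.0 (at least 90% identity over at least 100 nt). Alternatives were other scalings, filters, libraries and tests, DESeq2 1.42.0 among them.

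Members and gene lists were chosen with earlier results of these data known. Named genes were the 15 called coding genes at each end without overlap, the 10 most abundant per group, up to 3 called members of each list in each direction and the non-coding RNAs of the lists. EDC2, STP4, TPS1, PGK1, GPM1, HRP1, LSC1, FTR1, NAB3, WBP1, RNA14, CFT1, YSH1, HIS3, YNCD0026W, the single antisense RNAs, TAT1 and PHO84 were chosen after their values were seen. Of 314 named genes 301 were tested.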

Additional observations from a re-analysis of the deposited data

How the results depend on the processing

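Calls of higher genes numbered 1014 and kept to 974 to 1029 with any 1 library left out, and calls of lower genes numbered 751 and ran from 678 to 777. Without the filter on low counts 1754 genes were called higher, and with DESeq2 1703. A fit of only the 6 libraries compared gave 1072 higher and 780 lower calls. Lower calls numbered 463 with median-ratio scaling, 469 with total counts and 457 in a test against the fold threshold. All 1014 higher calls were shared by the 3 other scalings, DESeq2 and the fit without a filter, which shared 463, 469, 699, 462 and 525 of the 751 lower calls, and no sign turned there. With the filter set in total RNA, chosen after seeing the data, 1465 were higher and 586 lower. In total RNA the count of 0 became 1 without Cbp80-PrA replicate 2 and stayed at 0 without any other library. Pulldown libraries of the same replicate number correlated weakly (0.168, 0.032 and 0.084), beside -0.127 to 0.042 for unlike numbers. The replicate block gave 1007 higher and 749 lower calls. Of the 59 list medians, 14 changed sign under at least 1 alternative, so no direction is given for them. Of 290 called genes among those named, 241 kept their call under every alternative and 0 reversed. The no-tag depth limits genes below about 102 CPM.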
